A study of Mus musculus with 48 samples.

Results

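The 35 genes described here belong to fat cells or to the storage and synthesis of fat, and they were chosen by name from the array's annotated gene symbols: hormones of adipose tissue, coat proteins of the lipid droplet, carriers that bring fatty acids and glucose into the cell, the transcription factors of the adipocyte, and the enzymes that make, store and release fat. Of these, 32 were measured among the 19938 genes of the array. Cfd, Acsl1 and Adrb3 are not analysed here. Each gene is represented by its transcript cluster, the array's unit for a gene, and its value is a log2 signal, on which 1 unit is a 2-fold change in brightness. Signal levels were compared between tumors for the same gene, and not between genes. Slopes, ranges and SDs of different genes are set side by side. Whether they are limited by how near a gene lies to the array's background or to its highest value was not tested.

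RNA came from 48 mouse mammary tumors, 4 for each of 12 models, with an array for every tumor. Each model is 1 tumor cell line grown in the #4 mammary fat pad of immunocompetent mice of its own strain. Spontaneous tumors of Balb/c mice gave rise to TS/A-E1, F311, EMT-6, D2A1 and 4T1, and one of a C57Bl/6 mouse to E0771. Met-1, MVT-1, M6, HRM-1 and 6DT1 came from genetically engineered FVB/N mice and R3T from an engineered 129Sv mouse. Tumors were collected at a diameter of 0.5 to 1.0 cm, separated from the tissue around them, and 15 to 30 mg was used for RNA. The study's methods describe young female hosts for such tumors, naming 4T1, F311 and MVT-1, and the labels give neither age nor sex. No normal mammary gland or fat was among the arrays. The 4 tumors of a model are labelled as biological replicates, so that tests between models measure the spread between tumors of 1 line.

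White fat cells hold triglyceride in a single large droplet, which the perilipins Plin1 and Plin4 and the protein Cidec coat and enlarge. They take up fatty acids that Lpl frees from lipoproteins, bind them with Fabp4, esterify them through Agpat2 and the Dgat enzymes, and release them again through Pnpla2 and Lipe, all under the control of the nuclear receptor Pparg and of Cebpa. Brown and beige fat cells also express Ucp1, which lets mitochondria burn fat for heat, and Cidea. The mammary gland is embedded in fat. Many tumor cells make fatty acids of their own with Acly, Acaca, Fasn and Scd1, and most cell types, not only adipocytes, carry Plin2 on their droplets.

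Array medians lay between 6.76 and 6.99, and no 2 arrays held identical values. Most arrays were closest to another tumor of their own model, with 3 exceptions: F311 replicate 1 and Met-1 replicate 2 were closest to each other (r = 0.984 over genes), and 6DT1 replicate 4 was closest to MVT-1 replicate 4. The luminal keratin gene Krt8 had a signal of 10.63 or more in all 48 tumors. The epithelial adhesion gene Epcam ranged from 5.73 to 11.90 and was at 7.14 or less in all D2A1 and MVT-1 tumors.

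Adipoq encodes adiponectin, a hormone secreted by fat cells, and its signal ranged from 6.18 to 12.74 over the 48 tumors. In 6DT1 it was 6.58, 12.55, 12.74 and 6.67 in replicates 1 to 4, a range of 6.16 log2 units or 71.5-fold within 1 model. F311 tumors measured 12.14, 8.16, 7.88 and 6.41, and E0771 tumors 12.14, 8.0, 7.21 and 7.53. These 3 models thus held the 4 tumors with the strongest Adipoq signals. In 6DT1 and F311 they stood beside tumors of the same line near the lowest, whereas the lowest E0771 tumor measured 7.21.

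A single tumor stood above the rest in M6 (6.37, 10.39, 7.52 and 6.43), in MVT-1 (6.18, 9.78, 6.82 and 7.43) and in R3T (8.29, 11.22, 9.16 and 7.23). Met-1 tumors measured 9.53, 11.13, 7.74 and 7.63, TS/A-E1 tumors 7.72, 9.99, 9.13 and 6.99, and 4T1 tumors 8.11, 9.17, 8.75 and 6.53. D2A1 tumors measured 8.44, 10.58, 7.48 and 9.71 and EMT-6 tumors 10.12, 9.06, 10.74 and 7.72. HRM-1 was the even model, with 7.37, 6.80, 7.98 and 7.44, a 2.27-fold range. Model means ran from 7.40 ± 0.48 in HRM-1 to 9.63 ± 3.48 in 6DT1 (SD, n = 4), and the tumors of no pair of models were fully apart for Adipoq. In whole tumors, more fat cells and more RNA of these genes per fat cell cannot be told apart.

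**Figure D1:**
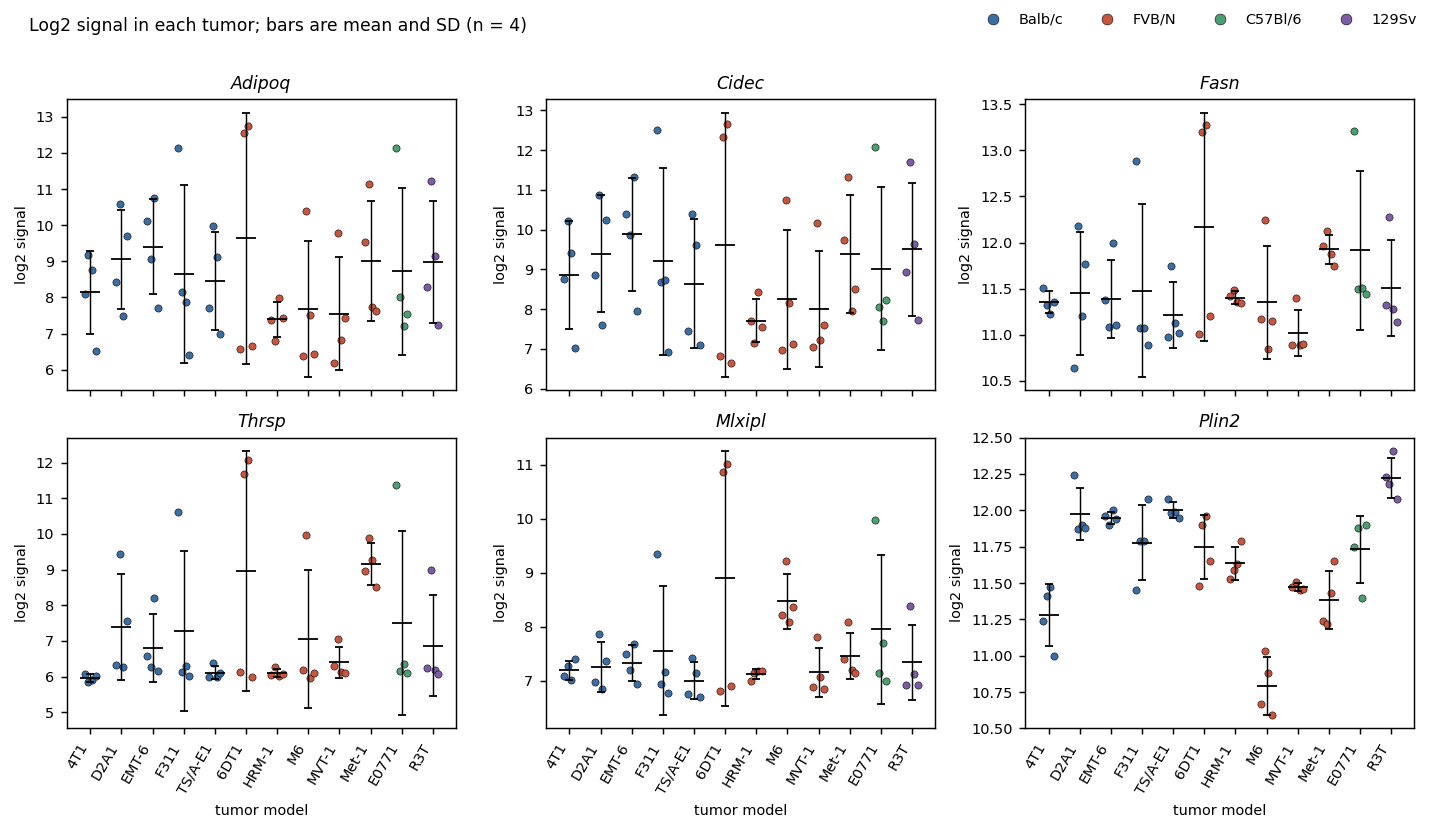
Log2 signal (y axis) of Adipoq, Cidec, Fasn, Thrsp, Mlxipl and Plin2 in each tumor by model (x axis), colored by strain, with bars for mean and SD of 4 tumors. Adipoq and Cidec spread over up to 6.16 log2 units within a model, whereas Plin2 spread little within models and differed between them, from M6 (lowest) to R3T (highest).

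The same tumors were high for most of the genes. The signal was highest in 6DT1 replicate 3 for 28 of the 32 genes and in 6DT1 replicate 2 for Cidea and Ucp1, the exceptions being Plin2 (R3T replicate 3) and Acly (E0771 replicate 1). The SD within models exceeded 1 log2 unit for 16 of the 32 genes, against 143 of all 19938 genes (0.717%). The median SD within models was 1.08 for the 32 genes and 0.15 for all genes. Across the 12 models, 2 of the 32 genes differed by limma's F-test at an adjusted p under 0.05, Plin2 (adjusted p = 1.5e-11) and Pparg (adjusted p = 0.032), where 70.4% of all genes did. At an unadjusted p under 0.05 the count was also 2. This count depended on single tumors. It was 8 without 6DT1 replicate 1 or without 6DT1 replicate 4, and 5 without E0771 replicate 1. It was 1, with Pparg lost, without 6DT1 replicate 2 or 3 or without M6 replicate 1, 3 or 4, and it was 10 without the 3 tumors that were closest to another model, which was tried only once the data had been seen.

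**Figure D2:**
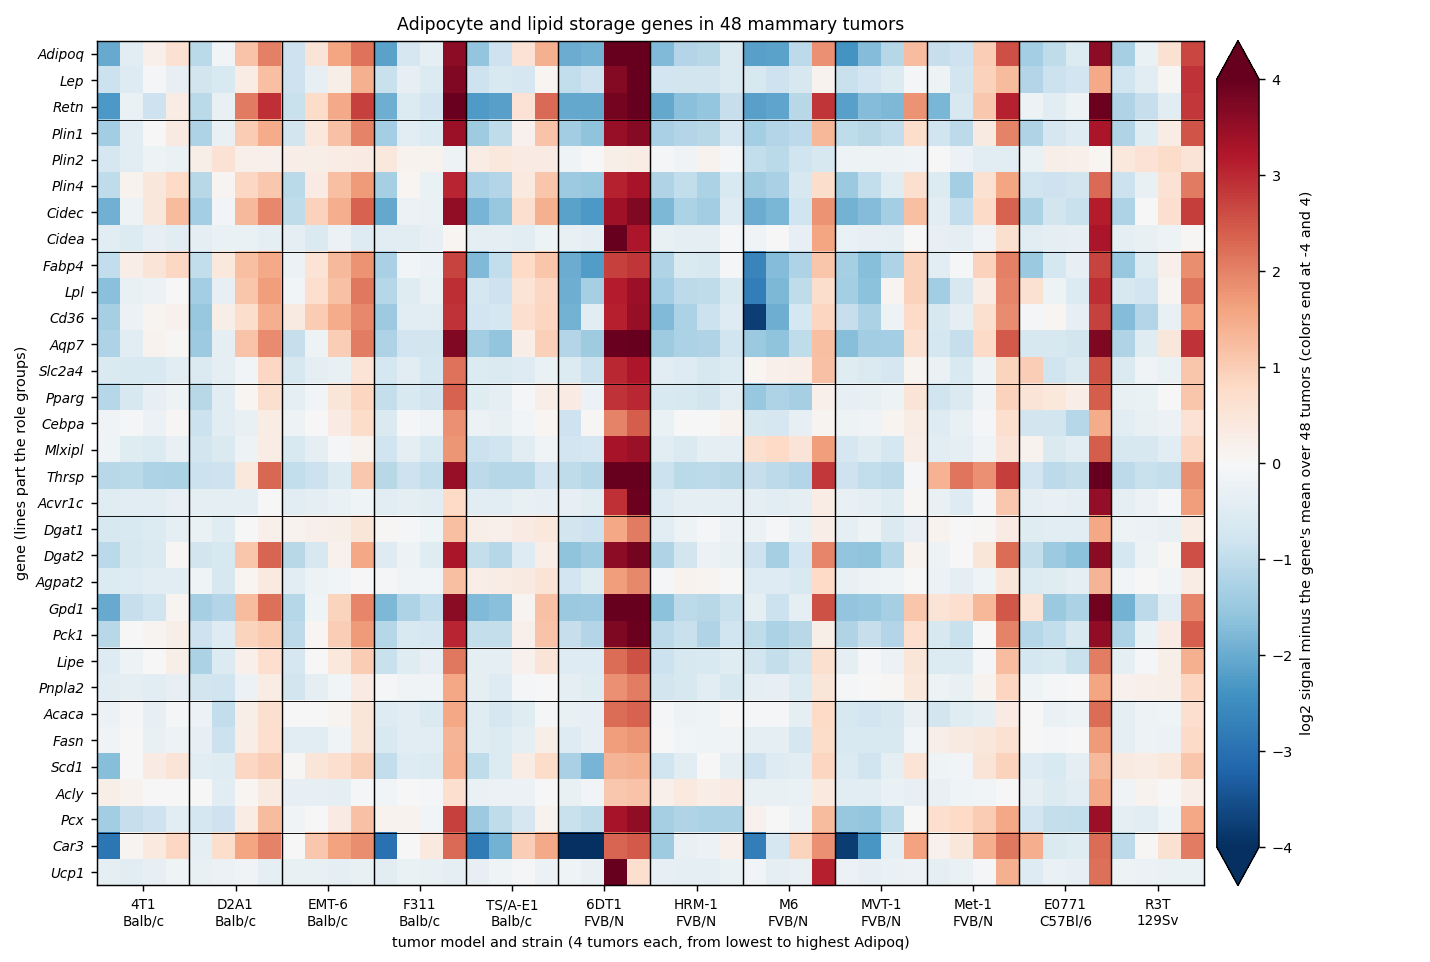
Log2 signal minus the mean of the gene over the 48 tumors (color) for 32 genes (rows, grouped by role) in 48 tumors (columns, 4 per model, ordered by Adipoq within the model). The high columns of 6DT1, F311 and E0771 run through most rows, while Plin2 stays near its mean in them.

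To follow tumors within models without sorting them into classes, each gene was fitted on the Adipoq signal with a term for every model, so that the slope is the change in log2 signal per log2 unit of Adipoq. Of the 31 other genes, 30 rose with Adipoq, where 14.0% of all genes rose and 25.6% fell (limma, adjusted p under 0.05). The median slope was 0.48 for the 31 genes and -0.01 for all genes. With every array centred on its median, all genes split into 2406 that rose and 8504 that fell, where the deposited scale gave 2797 and 5098, and the 30 genes rose on both scales. It was known from earlier results of these data that adipocyte genes vary together within models, so that the slopes of the fat cell genes describe the pattern and are no independent evidence of it. The slope was above 0 in each of the 12 models for 22 of the 31 genes, and 22 shared their highest tumor with Adipoq in 11 or 12 models. Neither count was taken over all genes, so how unusual they are is not known. At equal Adipoq, 24 of the 31 genes differed between models, where 73.1% of all genes did. Of these 24, Plin2 and Pparg also passed the F-test without Adipoq in the fit and the other 22 did not. Of the 24 genes that passed at equal Adipoq, 22 also passed with Adipoq on the linear scale and 19 without the 6DT1 model. The fit takes a common straight slope for all models. It describes poorly the genes that were flat in most tumors, such as Lep, Thrsp and Acvr1c. Each gene was tested at equal Adipoq under 71 or 72 alternatives, and the range of the adjusted p over them is given where a call changed.

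**Figure D3:**
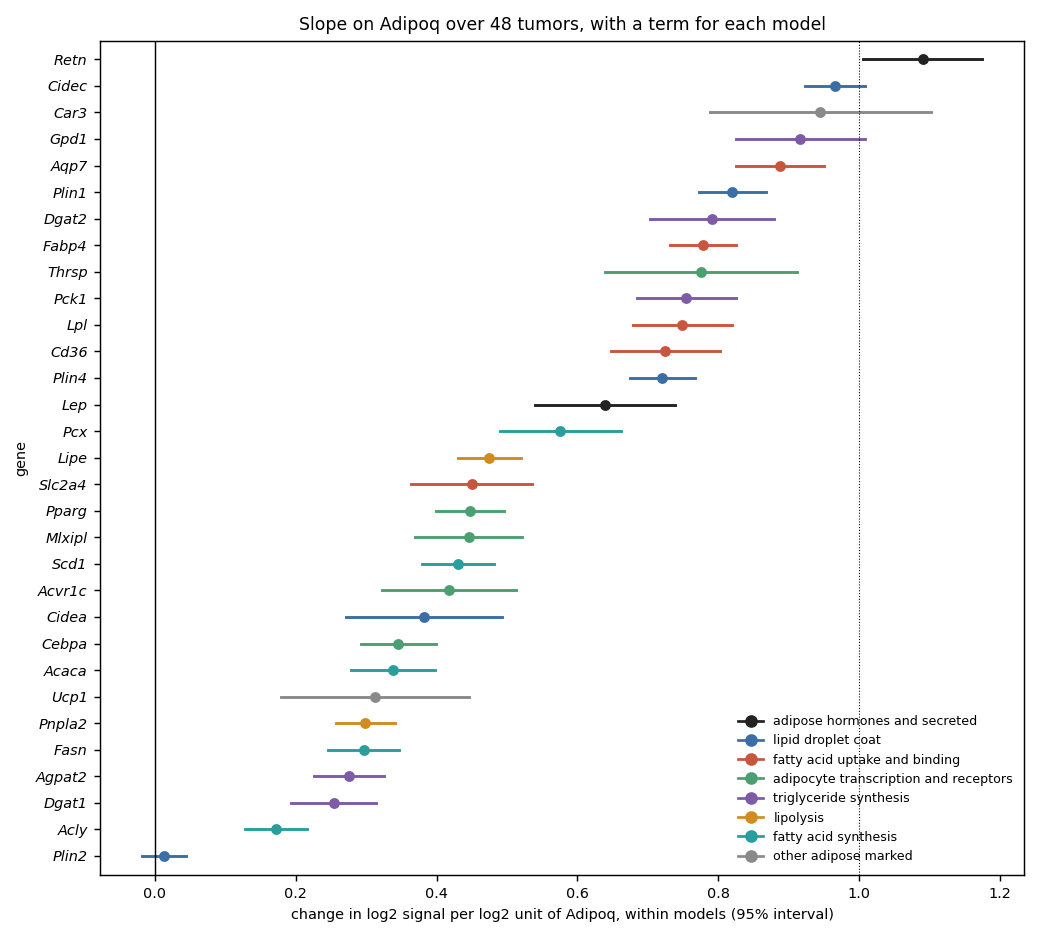
Slope of each gene on Adipoq within models (x axis, log2 units per log2 unit, with 95% interval), colored by role. Retn, Cidec, Car3, Gpd1 and Aqp7 lie near 1, the fatty acid synthesis genes between 0.17 and 0.58, and the interval of Plin2 includes 0.

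Among the hormones, Retn, which encodes resistin, had the steepest slope of the 31 genes, 1.09 (95% interval 1.01 to 1.18, adjusted p = 5.6e-22). In 6DT1 it measured 6.82, 12.69, 13.00 and 6.80, in E0771 12.78, 8.65, 8.65 and 8.43, and in F311 12.82, 8.09, 8.32 and 6.92. In Met-1 the values were 9.95, 11.93, 8.22 and 7.02 and in HRM-1 7.20, 6.82, 7.95 and 7.33. In each of the 12 models the tumor with the highest Retn was also the one with the highest Adipoq.

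Lep encodes leptin, the hormone of the fat store, and followed a different course. It lay between 5.40 and 6.62 in most tumors and was raised in tumors rich in Adipoq, to 10.24 and 11.21 in 6DT1 replicates 2 and 3, 10.30 in F311 replicate 1 and 9.48 in R3T replicate 2. E0771 replicate 1 reached 8.09 and M6 replicate 2 6.72, although their Adipoq signals were 12.14 and 10.39. Thus E0771 replicate 1 and F311 replicate 1, equal in Adipoq, were 2.21 log2 units apart in Lep. The slope was 0.64 (95% interval 0.54 to 0.74), and the models did not differ detectably at equal Adipoq (adjusted p = 0.062), nor did they for Retn (adjusted p = 0.13). Lep passed under 15 alternatives (adjusted p from 0.021 to 0.41 over all), among them leaving out 4T1 replicate 4, 6DT1 replicate 1, F311 replicate 2, M6 replicate 2, MVT-1 replicate 2, R3T replicate 2 or TS/A-E1 replicate 4, and Retn only without TS/A-E1 replicate 2 (0.029 to 0.31).

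The lipid droplet coat held both extremes. Cidec, which enlarges droplets by joining them, followed Adipoq most closely: with the model terms, 98.3% of its variance within models went with Adipoq, and the slope was 0.97 (95% interval 0.92 to 1.01, adjusted p = 3.5e-30). Its signals were 6.82, 12.33, 12.65 and 6.65 in 6DT1, 12.08, 8.06, 7.69 and 8.23 in E0771, and 12.50, 8.69, 8.72 and 6.92 in F311. Plin1, the perilipin of the adipocyte, ranged from 6.88 to 12.13 with a slope of 0.82 (adjusted p = 4.4e-26), and Plin4, another adipocyte perilipin, from 6.74 to 11.55 with a slope of 0.72 (adjusted p = 1.3e-24). At equal Adipoq the models differed for Cidec (adjusted p = 0.025) and Plin4 (adjusted p = 0.026) but not detectably for Plin1 (adjusted p = 0.21), which passed only with Adipoq on the linear scale (range over the alternatives 0.015 to 0.35). The call of Cidec was lost without 4T1 replicate 2, 6DT1 replicate 2 or 4, or the models 4T1 or 6DT1 (range 0.0094 to 0.20). That of Plin4 was lost without 4T1 replicate 1 or 4, F311 replicate 1 or 3, the models 4T1 or F311, or the 2 tumors farthest in Adipoq (0.0055 to 0.18). Both were also lost with Plin1 in place of Adipoq (adjusted p = 0.055 for Cidec and 0.17 for Plin4) and without the 3 tumors closest to another model.

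Plin2, the perilipin of most cell types, did not vary with Adipoq, with a slope of 0.01 (95% interval -0.02 to 0.04, adjusted p = 0.50), and ranged over 1.83 log2 units in all. M6 tumors were lowest, at 10.67, 11.03, 10.88 and 10.59, and R3T tumors highest, at 12.23, 12.18, 12.41 and 12.08. The means of 10.79 ± 0.20 and 12.23 ± 0.14 (SD, n = 4) were 2.70-fold apart, with no overlap. The tumors richest in Adipoq went both ways for Plin2 within their models. 6DT1 measured 11.48, 11.90, 11.96 and 11.65, with the Adipoq-rich replicates 2 and 3 highest. F311 replicate 1, at 11.45, was the lowest of its model. E0771 replicate 1 lay at 11.75, against 11.88, 11.40 and 11.90 in the other E0771 tumors.

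The order of the model means for Plin2 ran from M6 through 4T1 (11.28 ± 0.21), Met-1 (11.38 ± 0.20) and MVT-1 (11.47 ± 0.03) to HRM-1 (11.63 ± 0.11), E0771 (11.74 ± 0.23), 6DT1 (11.75 ± 0.22) and F311 (11.78 ± 0.26), and on to EMT-6 (11.95 ± 0.04), D2A1 (11.97 ± 0.18) and TS/A-E1 (12.00 ± 0.06) just below R3T. Tumors of neighboring models in this order overlapped, apart from MVT-1 (up to 11.51) and HRM-1 (from 11.53). The tumors were fully apart in 34 of the 66 pairs of models, a share above that over all genes and pairs (28.2%). Differences between models accounted for 85.7% of the variance of Plin2, against 14.5% for Cidec and a median of 62.4% for all genes.

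The bases before the start of 3 of these genes are printed because Adipoq and Plin1 moved together while Plin2 did not. Each window is the 250 bases upstream of the RefSeq start (GRCm38.p6), 5′ to 3′ on the strand of the gene, with matches in capitals to AGGTCA, the half-site of nuclear receptors such as Pparg, TTGCNNAA, a core bound by C/EBP factors, CACGTG, the E-box, the CCAAT box and TATAAA, searched on both strands. Adipoq lies on the plus strand at chr16:23146286-23146535, Plin1 on the minus strand at chr7:79732777-79733026 and Plin2 on the minus strand at chr4:86670060-86670309.
Adipoq: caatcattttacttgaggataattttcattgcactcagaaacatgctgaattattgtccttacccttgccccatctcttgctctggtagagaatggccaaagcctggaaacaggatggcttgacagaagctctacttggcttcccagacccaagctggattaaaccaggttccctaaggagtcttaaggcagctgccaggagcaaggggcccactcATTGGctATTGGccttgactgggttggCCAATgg
Plin1: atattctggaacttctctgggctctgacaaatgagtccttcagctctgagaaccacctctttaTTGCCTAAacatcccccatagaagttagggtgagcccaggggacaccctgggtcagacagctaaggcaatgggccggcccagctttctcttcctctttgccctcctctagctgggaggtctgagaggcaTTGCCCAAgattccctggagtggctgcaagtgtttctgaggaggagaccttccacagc
Plin2: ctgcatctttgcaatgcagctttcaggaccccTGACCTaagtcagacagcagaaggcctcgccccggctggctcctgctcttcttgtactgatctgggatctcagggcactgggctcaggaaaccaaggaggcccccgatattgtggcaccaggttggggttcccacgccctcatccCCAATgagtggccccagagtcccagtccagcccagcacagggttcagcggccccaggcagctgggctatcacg
Adipoq held 3 CCAAT matches, 34, 27 and 7 bases before the start. Plin1 held 2 matches to TTGCNNAA, 187 and 58 bases before the start, and Plin2 had AGGTCA 218 and CCAAT 73 bases before it. A window was found for 23 of the 32 genes. AGGTCA occurred in 6 of them (26.1%, against 15.8% of all genes with a window), TTGCNNAA in 4 (17.4% against 10.8%), CACGTG in 3 (13% against 6.86%), CCAAT in 9 (39.1% against 37.5%) and TATAAA in 2 (8.7% against 14.3%). These are matches of letters, and binding was not measured.

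Fabp4, Lpl, Cd36 and Aqp7 move fatty acids and glycerol, and all 4 rose with Adipoq. Aqp7, the glycerol channel of the fat cell, had a slope of 0.89 (95% interval 0.83 to 0.95, adjusted p = 1.5e-23), with 6.29, 11.42, 11.82 and 6.04 in 6DT1, 11.19, 6.73, 6.82 and 6.83 in E0771 and 11.16, 6.72, 6.70 and 6.24 in F311. The slopes of Fabp4, the fatty acid binding protein of adipocytes, Lpl, the lipoprotein lipase, and Cd36, a fatty acid transporter, were 0.78, 0.75 and 0.72. Each of these 3 genes was lowest in M6 replicate 1, where Cd36 measured 5.41 against 10.03 in M6 replicate 2. Lpl, Cd36 and Fabp4 are also expressed outside fat, in macrophages and endothelium among others. The part of such cells in these values was not tested. At equal Adipoq, Lpl, Cd36 and Fabp4 differed between models (adjusted p = 0.030, 0.0020 and 6.6e-05), as did 73.1% of all genes, and Aqp7 did not pass (adjusted p = 0.13). Lpl lost its call when M6 replicate 1 or 2, E0771 replicate 3 or 4, or any of the models E0771, EMT-6 and M6 was left out, and with Plin1 in place of Adipoq (adjusted p = 0.11, range over the alternatives 0.0054 to 0.11). Aqp7 passed with Adipoq on the linear scale or with Plin1 in its place (range 0.0033 to 0.47).

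Slc2a4, the insulin-regulated glucose transporter of fat and muscle, rose with Adipoq with a slope of 0.45 (adjusted p = 1.6e-10). It measured 10.40 and 10.61 in 6DT1 replicates 2 and 3. E0771 replicate 3, with an Adipoq signal of 7.21, had 8.36 against 6.80 and 6.58 in replicates 2 and 4. All 4 M6 tumors, at 7.47, 8.54, 7.64 and 7.60, lay above the 4 tumors of HRM-1 (6.75 to 6.92). The muscle creatine kinase gene Ckm was 11.75 in E0771 replicate 3, 11.33 in M6 replicate 3, 9.35 in D2A1 replicate 1 and 9.29 in M6 replicate 4. It was 8.79 in Met-1 replicate 3 and 8.78 in 6DT1 replicate 3, the tumor highest in Slc2a4, against 7.05 to 7.71 in the other tumors. The part of muscle in the Slc2a4 values was not tested.

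Pparg, the nuclear receptor that drives the making of fat cells, rose with Adipoq with a slope of 0.45 (95% interval 0.40 to 0.50, adjusted p = 9.8e-18) and also differed between models. Its signals were 9.05, 11.61, 11.73 and 8.50 in 6DT1, 11.14, 9.0, 9.24 and 9.14 in E0771, and 11.07, 7.99, 8.12 and 7.76 in F311. M6 tumors measured 7.21, 8.93, 7.39 and 7.48, and HRM-1 tumors 8.07, 8.11, 8.28 and 7.98. The 6DT1 tumors poor in Adipoq (6.58 and 6.67) thus had more Pparg than each of the HRM-1 tumors, and the 3 E0771 tumors with an Adipoq signal of 8.0 or less had 9.0 to 9.24. E0771 tumors lay above all M6 tumors, by 3.67-fold on average, and above all HRM-1 tumors, by 2.87-fold. At equal Adipoq the model means ran from 8.15 in M6 to 9.74 in 6DT1 (adjusted p = 2.2e-09), and 80.5% of the variance that remained lay between models.

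Mlxipl encodes ChREBP, which turns on fat synthesis genes in response to glucose, and Thrsp encodes Spot 14, a promoter of fatty acid synthesis in fat, liver and the lactating mammary gland. Both rose with Adipoq, with slopes of 0.45 and 0.78 (adjusted p = 7.2e-12 and 1.8e-11), and both had 1 model in which all tumors were raised. For Mlxipl this was M6, with 8.21, 9.22, 8.08 and 8.37, fully above the HRM-1 (6.99 to 7.19) and TS/A-E1 tumors (6.70 to 7.42), which were 2.54-fold and 2.76-fold lower. In 6DT1 it was 6.81, 10.86, 11.02 and 6.90. At equal Adipoq the mean of Mlxipl was 8.86 in M6 and 6.95 in EMT-6, the lowest (adjusted p = 2.5e-06). As measured, EMT-6 was not the lowest model: its mean was 7.33, against 7.01 in TS/A-E1.

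For Thrsp the raised model was Met-1, with 8.96, 9.89, 9.28 and 8.51 at Adipoq signals of 9.53, 11.13, 7.74 and 7.63. HRM-1 tumors measured 6.06, 6.27, 6.02 and 6.08, 8.29-fold lower on average. Outside Met-1, Thrsp was above 9 in the Adipoq-rich tumors 6DT1 replicates 2 and 3 (11.68 and 12.08), E0771 replicate 1 (11.37), F311 replicate 1 (10.63), M6 replicate 2 (9.96) and D2A1 replicate 2 (9.43). TS/A-E1 replicate 2, by contrast, had 6.38 at an Adipoq signal of 9.99, and EMT-6 replicate 1 had 6.58 at 10.12. At equal Adipoq the means ran from 6.14 in EMT-6 to 8.81 in Met-1 (adjusted p = 3.9e-04). As measured, the mean of Thrsp was 6.80 in EMT-6 and lowest in 4T1, at 5.97.

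Cebpa, the partner of Pparg in fat cells and also a factor of myeloid cells, had a slope of 0.35 and ranged from 7.36 to 10.93. Acvr1c, the activin receptor ALK7 of mature adipocytes, stayed between 5.31 and 5.81 in most tumors and reached 8.75 and 9.77 in 6DT1 replicates 2 and 3, 9.35 in E0771 replicate 1 and 7.51 in R3T replicate 2. In F311 replicate 1 it was 6.64. Both rose with Adipoq (adjusted p = 5.8e-13 and 8.1e-09). At equal Adipoq both differed between models (adjusted p = 4.4e-04 and 0.0064), but Acvr1c did not with Adipoq on the linear scale (adjusted p = 0.097) or without the 6DT1 model (adjusted p = 0.13, range over the alternatives 0.0014 to 0.13).

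**Figure D4:**
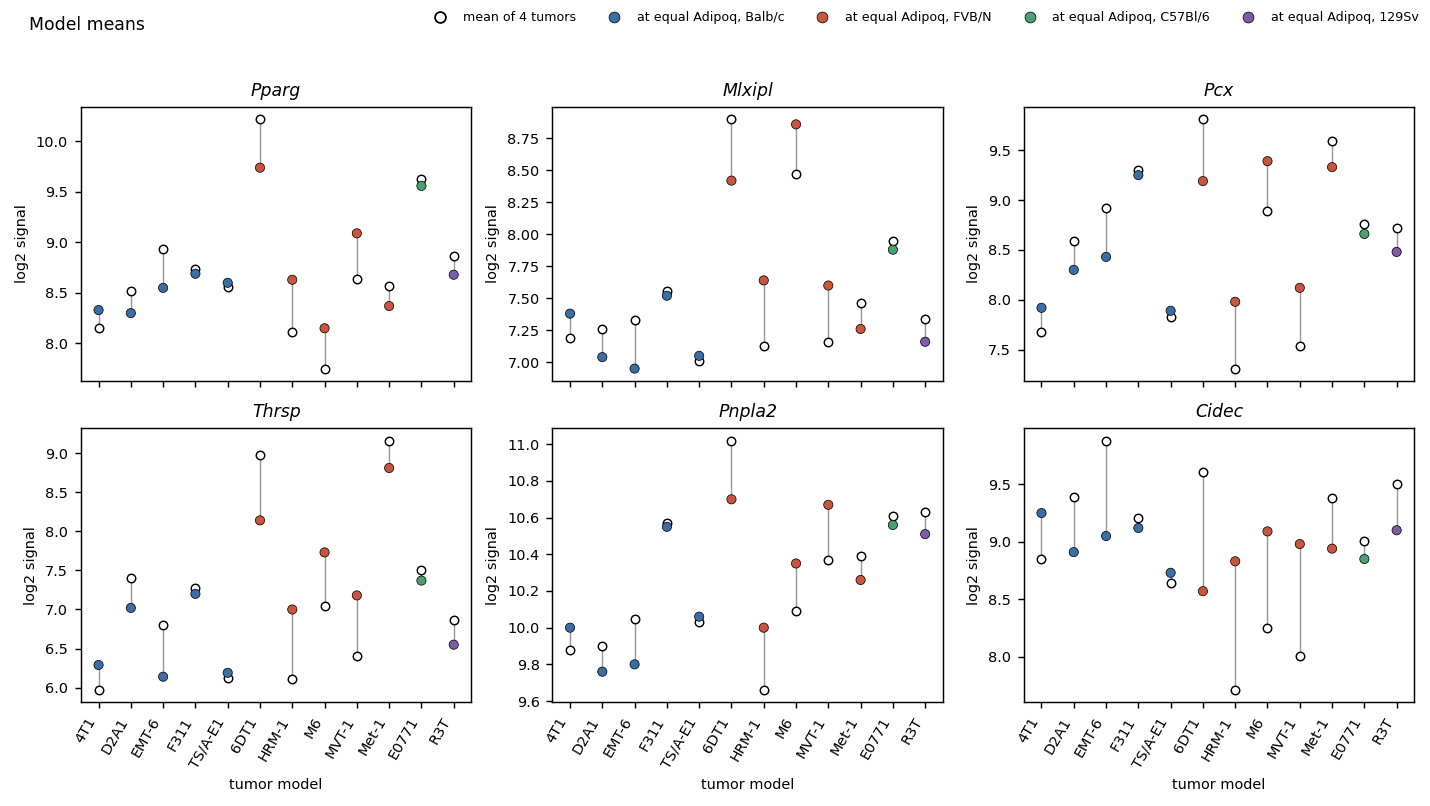
Model means of log2 signal (y axis) for 6 genes by model (x axis), as the mean of 4 tumors (open) and at equal Adipoq (filled, colored by strain). Pparg stays high in 6DT1 and E0771, Mlxipl in M6 and Thrsp in Met-1, while the means of Cidec draw together.

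All 5 genes of triglyceride synthesis rose with Adipoq. Gpd1, which makes the glycerol backbone, had a slope of 0.92 (95% interval 0.83 to 1.01, adjusted p = 1.1e-18), with 7.23, 12.82, 13.01 and 7.26 in 6DT1, 12.55, 7.43, 9.24 and 7.21 in E0771 and 12.31, 7.71, 7.46 and 6.92 in F311. Met-1 tumors measured 10.02, 11.18, 9.36 and 9.26, all above the HRM-1 tumors (7.07 to 7.82) and 5.38-fold higher on average. Dgat2, the diacylglycerol acyltransferase that feeds droplets with newly made fatty acids, had a slope of 0.79, and Pck1, which supplies glycerol in fat cells, 0.75. The slopes of Agpat2 and Dgat1, the other acyltransferases of the pathway, were 0.28 and 0.25.

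Dgat1 and Agpat2 differed least from tumor to tumor among the 5 genes, with ranges of 2.93 and 2.68 log2 units. Both were low in 4T1 (8.75 to 9.0 and 10.19 to 10.29) and higher in every TS/A-E1 tumor (means of 9.68 and 11.11), by 1.79-fold and 1.81-fold on average. At equal Adipoq, Gpd1, Agpat2 and Dgat2 differed between models (adjusted p = 3.6e-04, 0.0014 and 0.035), as did 73.1% of all genes, whereas Dgat1 and Pck1 did not pass (adjusted p = 0.11 and 0.30). Dgat1 passed with Adipoq on the linear scale and without 6DT1 replicate 4, E0771 replicate 1, the 6DT1 model or the 3 tumors closest to another model (adjusted p from 6.6e-07 to 0.39 over the alternatives), and Pck1 only with Adipoq on the linear scale (0.032 to 0.94). The call of Dgat2 was lost under 12 alternatives (0.0013 to 0.15), among them leaving out EMT-6 replicate 1 or 2, M6 replicate 1 or 2, or TS/A-E1 replicate 1, 2 or 3.

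Lipolysis was represented by Pnpla2, the lipase of the first step, and Lipe, the hormone-sensitive lipase. Lipe ranged from 8.27 to 12.10 with a slope of 0.48 (adjusted p = 1.6e-19). Pnpla2 had a slope of 0.30 (95% interval 0.26 to 0.34, adjusted p = 3.3e-14), with 9.89, 12.09, 12.32 and 9.78 in 6DT1 and 11.82, 10.13, 10.14 and 10.20 in F311. HRM-1 tumors were low, at 9.63, 9.54, 9.63 and 9.83, and R3T tumors, at 10.46, 11.12, 10.51 and 10.44, and MVT-1 tumors, at 10.22, 10.68, 10.27 and 10.30, lay above all of them, by 1.97-fold and 1.63-fold. At equal Adipoq the means of Pnpla2 ran from 9.76 in D2A1 to 10.70 in 6DT1 (adjusted p = 9.3e-07), and Lipe differed as well (adjusted p = 5.4e-04). As measured, the lowest mean of Pnpla2 was 9.66, in HRM-1.

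Fatty acid synthesis had the lowest median slope of the groups, 0.34, and all 5 genes rose with Adipoq: Acly, which makes acetyl-CoA from citrate, by 0.17 per log2 unit, Fasn, the fatty acid synthase, by 0.30, Acaca, the acetyl-CoA carboxylase, by 0.34, Scd1, the desaturase, by 0.43, and Pcx, the pyruvate carboxylase that refills citrate, by 0.58. Their adjusted p values ran from 1.3e-07 for Acly to 2.1e-16 for Scd1. Fasn had a range of 2.64 log2 units over the 48 tumors, against 6.55 for Adipoq. It measured 11.01, 13.20, 13.28 and 11.20 in 6DT1, 13.21, 11.50, 11.51 and 11.44 in E0771 and 12.88, 11.07, 11.07 and 10.89 in F311. It was even in HRM-1, at 11.42, 11.49, 11.36 and 11.34, whereas D2A1 tumors measured 10.64, 12.18, 11.20 and 11.77, a 2.92-fold range.

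All 4 Met-1 tumors (11.96, 12.12, 11.88 and 11.74) had more Fasn than the HRM-1 tumors, by 1.43-fold, and the MVT-1 tumors (10.89 to 11.40), by 1.87-fold. Acly was raised in HRM-1, where Adipoq was lowest on average, with 10.97, 10.81, 10.91 and 10.86, above every MVT-1 tumor (10.14 to 10.33) by 1.58-fold. Pcx was high in all Met-1 tumors, at 9.59, 10.13, 9.39 and 9.26, and even in HRM-1, at 7.39, 7.26, 7.32 and 7.30, a 4.85-fold difference in the mean. In 6DT1, Pcx measured 7.68, 11.86, 12.13 and 7.57. The pairs of models named for single genes were chosen after their values were seen, so their folds are a description and no p-values are given for them. At equal Adipoq all 5 genes differed between models (adjusted p from 4.1e-05 for Pcx to 0.016 for Scd1), where 73.1% of all genes did. Scd1 no longer did without 6DT1 replicate 4 (adjusted p = 0.088), without the 3 tumors closest to another model (adjusted p = 0.079) or without the 6DT1 model (adjusted p = 0.25, range over the alternatives 2.9e-04 to 0.25).

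Car3, a carbonic anhydrase abundant in fat and in slow muscle, had the widest range of the 32 genes, from 5.86 to 13.53. Its slope on Adipoq was 0.95 (95% interval 0.79 to 1.10, adjusted p = 3.6e-12), with 6.13, 13.40, 13.53 and 5.86 in 6DT1 and 13.36, 11.47, 11.10 and 8.11 in F311. E0771 measured 13.33, 10.61, 12.53 and 10.50, so that replicate 3, poor in Adipoq (7.21), lay 1.92 log2 units above replicate 2. That tumor had the highest signal of the muscle genes Ckm (11.75) and Acta1 (12.54), and M6 replicate 3, with 11.98 for Car3, had 11.33 and 12.45. In 6DT1 replicate 3, highest in Car3, Ckm and Acta1 were 8.78 and 9.95. None of 10 skeletal muscle genes rose or fell with Adipoq within models (slopes from -0.15 to -0.05), and the part of muscle in the Car3 values was not tested. Car3 differed between models at equal Adipoq (adjusted p = 0.0022), but not without 6DT1 (adjusted p = 0.52, range over the alternatives 1.6e-04 to 0.52).

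The brown fat genes Ucp1 and Cidea separated tumors that were alike in Adipoq. Ucp1 measured 10.59 in 6DT1 replicate 2, 8.94 in M6 replicate 2, 8.03 in E0771 replicate 1, 7.25 in Met-1 replicate 2 and 6.51 in 6DT1 replicate 3, and between 5.31 and 5.79 in the other tumors. F311 replicate 1, with an Adipoq signal of 12.14, had a Ucp1 signal of 5.48, and R3T replicate 2, with 11.22, had 5.57. Cidea was 9.89, 8.52, 8.56 and 6.87 in 6DT1 replicates 2 and 3, E0771 replicate 1 and M6 replicate 2, against 5.37 in F311 replicate 1 and 5.34 in R3T replicate 2. Hence 6DT1 replicates 2 and 3, which differed by 0.19 log2 units in Adipoq, were 4.08 apart in Ucp1.

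Slopes on Adipoq were 0.31 for Ucp1 (95% interval 0.18 to 0.45, adjusted p = 3.0e-04) and 0.38 for Cidea (95% interval 0.27 to 0.49, adjusted p = 1.1e-06), with a positive slope in 9 and 10 of the 12 models. A line describes both genes poorly, since they were flat over most of the range of Adipoq. With B cell and milk protein genes as further covariates, chosen after the data were seen, the slope of Ucp1 was 0.21 and no longer passed (adjusted p = 0.12, range over the alternatives 3.9e-05 to 0.12). At equal Adipoq Cidea differed between models (adjusted p = 0.0020), not so with Adipoq on the linear scale or without the 6DT1 model (range over the alternatives 5.0e-04 to 0.11). Ucp1 did not pass (adjusted p = 0.16), except without 6DT1 replicate 3 (0.024 to 0.69).

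**Figure D5:**
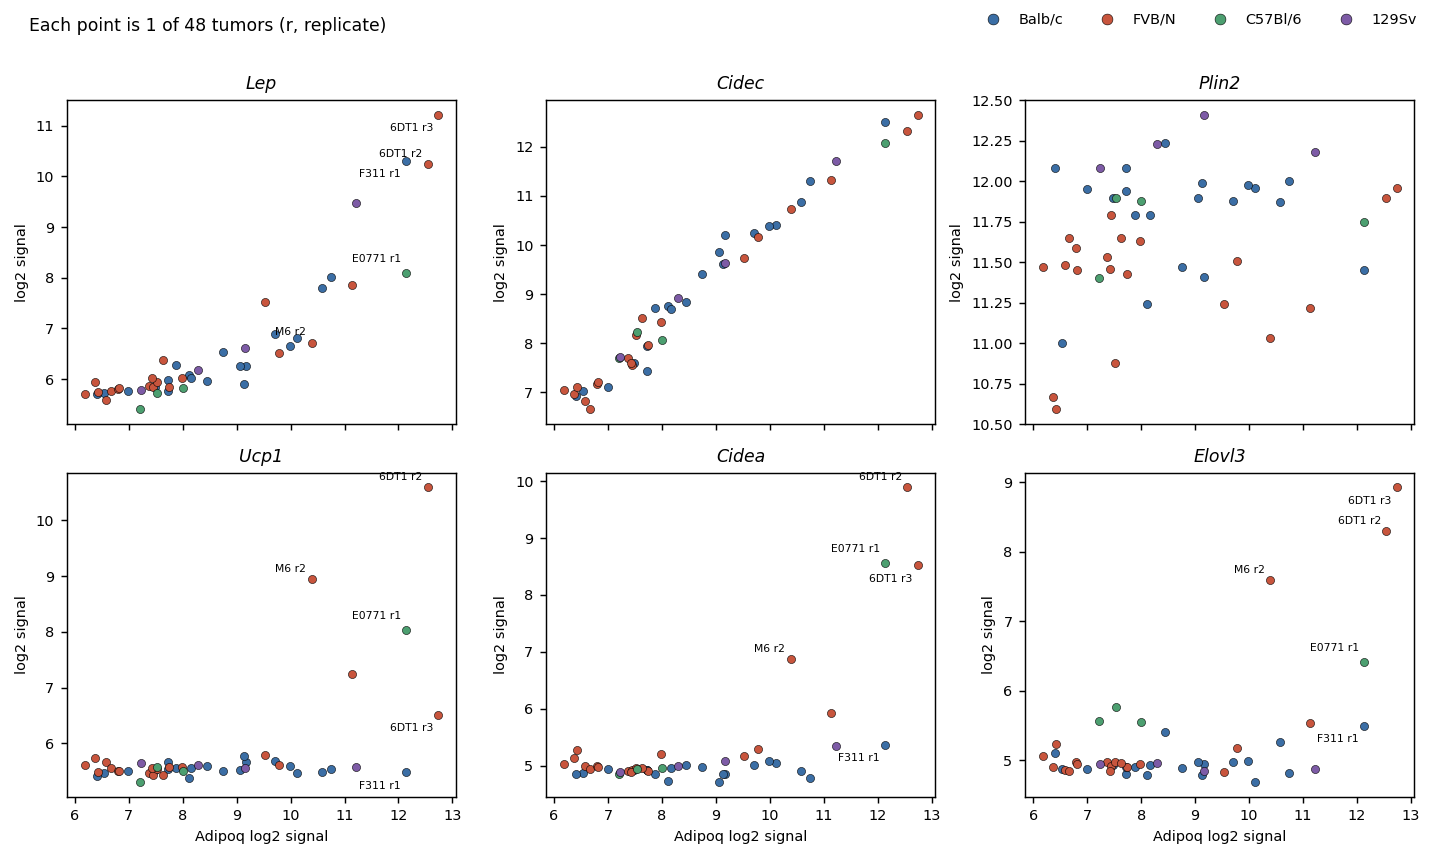
Log2 signal of Lep, Cidec, Plin2, Ucp1, Cidea and the brown fat gene Elovl3 (y axes) against Adipoq (x axis), 1 point per tumor, colored by strain. Cidec follows Adipoq over the whole range, and Plin2 does not. Ucp1, Cidea and Elovl3 are raised, to differing degrees, in single tumors: 6DT1 replicates 2 and 3, M6 replicate 2 and E0771 replicate 1. They are not raised in F311 replicate 1. Ucp1 is also raised in Met-1 replicate 2 (7.25), above 6DT1 replicate 3 (6.51).

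Other genes of brown fat were read beside these. Elovl3, a fatty acid elongase induced in brown fat, was 8.30 and 8.93 in 6DT1 replicates 2 and 3, 7.59 in M6 replicate 2 and 6.42 in E0771 replicate 1, and 5.77 or less in all other tumors, 5.49 in F311 replicate 1 among them. Cox8b, a cytochrome oxidase subunit of brown fat and muscle, was 12.33 and 11.87 in the same 6DT1 tumors but also 10.68 in F311 replicate 1 and 10.20 in E0771 replicate 3. Cox7a1 was 10.43 in 6DT1 replicate 2, but also 8.66 in E0771 replicate 3 and 8.41 in D2A1 replicate 1, against 7.24 in F311 replicate 1. Of 10 brown fat genes, 7 rose with Adipoq and none fell, where 14.0% of all genes rose and 25.6% fell. The median slope of the 10 genes was 0.14, and that of Ppara was 0.15. Dio2, Lhx8 and Zic1 did not pass, at slopes of -0.10, 0.02 and -0.01.

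Between the strains no gene of the 32 passed on model means (5 Balb/c against 5 FVB/N models, limma), where 0.191% of all genes did, and none had an unadjusted p under 0.05. Differences ran from -0.83 log2 units for Thrsp (6.71 in Balb/c and 7.54 in FVB/N) to 0.65 for Car3 (11.30 and 10.66). Adipoq was 8.74 and 8.25 (adjusted p = 0.83), and Plin2 11.80 and 11.41 (adjusted p = 0.69). Strain and tumor origin cannot be told apart in these 10 models.

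Among genes outside the list, those whose deviations from the model means followed Adipoq most closely over the 48 tumors were Slc36a2, an amino acid transporter (r = 0.974), Trarg1, a protein of glucose transporter vesicles (r = 0.971), Apoc1, an apolipoprotein (r = 0.966), Abcd2, a peroxisomal fatty acid transporter (r = 0.963), and Slc1a3, a glutamate transporter (r = 0.961). For all genes the median of this correlation was -0.17 and its 99th percentile 0.83, which 25 of the 31 genes exceeded, all values resting on the same 48 tumors. Of 17 other adipocyte genes, 16 rose with Adipoq, where 14.0% of all genes rose. Among them were Trarg1 (slope 0.64), Adig, an adipocyte-specific protein (0.64), and Lgals12, a galectin of fat cells (0.76). The co-regulator Nrip1 did not pass (slope 0.02).

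Of 20 further genes of lipid synthesis and its regulator SREBP, 13 rose and none fell, where 14.0% of all genes rose and 25.6% fell. The 13 were led by Acacb, the mitochondrial acetyl-CoA carboxylase (slope 0.42), Acss2, an acetyl-CoA synthetase (0.37), and Gpam, the first acyltransferase of glycerolipids (0.34). The SREBP gene Srebf2 (slope 0.006) and the desaturase gene Scd2 (-0.035) did not pass. Of the sterol pathway genes, Hmgcs1 rose (0.08), whereas Sqle, Lss, Fdps, Mvd and Idi1 did not pass, with slopes between -0.05 and 0.05. Of 10 genes of fatty acid oxidation 9 rose, with slopes up to 0.19 (Hadhb), and the exception was Cpt1a, the carnitine palmitoyltransferase (slope 0.02). These lists were drawn up with earlier results known.

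Markers of other tissue components moved with Adipoq as well. Of those measured, 8 of 8 basal and myoepithelial genes rose (median slope 0.36), 7 of 9 luminal genes, 8 of 10 endothelial genes, 8 of 10 fibroblast and matrix genes, 4 of 5 milk protein genes, 4 of 5 T and NK cell genes, 3 of 5 B cell genes and 3 of 8 macrophage genes, while 2 macrophage genes and 6 of 7 proliferation genes fell. Over all genes, 14.0% rose and 25.6% fell. The mean signal over 5 milk protein genes ran from 5.09 to 10.34, and over 5 B cell genes from 5.62 to 10.69. Epcam was 10.15 and 10.47 in 6DT1 replicates 2 and 3 but 5.73 and 5.96 in replicates 1 and 4, and the milk protein gene Csn2 was 10.26 and 9.19 against 5.29 and 5.16. The B cell gene Cd79b was 12.14 in Met-1 replicate 2 and 11.95 in F311 replicate 1. With only the B cell and milk protein genes as covariates, chosen after the data were seen, 29 of the 31 genes rose with Adipoq. Of all 19937 genes tested, 1508 rose in that fit. The part of the other components in the slopes was not tested.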

How the data were processed

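The deposited table holds log2 signals of 35556 transcript clusters from Affymetrix Mouse Gene 1.0 ST arrays, 1 array for each of 48 tumors. How the authors normalized these log2 values, and with which software, is not given in the sources used here. Clusters with 1 annotated gene (21789) were kept, and the cluster with the highest mean stood for each of 19938 genes. Of the clusters, 1621 carried several gene symbols and 12146 none. The genes, lists and tests were chosen with earlier results of these data known. Models were compared by the F-test of limma 3.58.1 in R 4.3.3 over 12 groups of 4 tumors. Slopes were fitted on Adipoq with model terms, and models at equal Adipoq by the F-test in the same fit. Strains were compared on model means. P-values were adjusted by Benjamini-Hochberg over all genes, at a threshold of 0.05.

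Pairs of models were called apart where their tumors did not overlap. The rule for named genes took the 5 with the largest slope on Adipoq and the 5 with the largest share of variance between models at equal Adipoq, outside the list the 5 closest to Adipoq (predicted genes left out), and up to 3 of each other list with the smallest p, and any other gene stands with its values. Motifs were searched in RefSeq promoters (GRCm38.p6). The alternatives tried were other normalizations, filters, anchors, blocks and left-out tumors or models. The number of arrays limits the precision.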

Additional observations from a re-analysis of the deposited data

Results flagged for a closer look

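Each gene was examined in each model for a tumor far from the other 3 (by Dixon's criterion on the gap to the nearest tumor), 384 groups in all, of which chance would flag about 1 in 20. The flags numbered 75, in 29 genes, and 74 of them were tumors far above the rest of their model. The genes vary together, so the flags are not independent and their number cannot be judged against 1 in 20. The flags fell mostly on 5 tumors. Where 2 tumors of a model are both high, the gap between them is small. This held for Adipoq in 6DT1 (12.55 and 12.74), and no 6DT1 tumor was flagged. All values are log2 signals.

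E0771 replicate 1 stood apart for 25 genes: Adipoq at 12.14, Lep at 8.09 and Retn at 12.78 among the hormones, Plin1 at 11.78, Plin4 at 10.53, Cidec at 12.08 and Cidea at 8.56 of the droplet coat, and Cd36 at 11.91 and Aqp7 at 11.19 of uptake. Of its regulators, Pparg was at 11.14, Cebpa at 9.99, Thrsp at 11.37 and Acvr1c at 9.35. Of triglyceride synthesis and lipolysis, Dgat1 was at 10.93, Dgat2 at 12.57, Agpat2 at 12.09, Pck1 at 11.39, Lipe at 11.60 and Pnpla2 at 11.84. Of fatty acid synthesis, Acaca was at 12.05, Fasn at 13.21, Scd1 at 13.43, Acly at 12.11 and Pcx at 12.00, and Ucp1 was at 8.03. The same tumor had a Krt18 signal of 10.77, against 7.01 to 7.37 in the other E0771 tumors, and its part in these values was not tested.

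F311 replicate 1, the array closest to a Met-1 tumor, stood apart for 16 genes: Lep at 10.30, Aqp7 at 11.16, Slc2a4 at 9.55, Pparg at 11.07, Mlxipl at 9.34, Thrsp at 10.63, Acvr1c at 6.64, Dgat1 at 10.59, Dgat2 at 12.24, Agpat2 at 11.93, Gpd1 at 12.31, Pck1 at 10.91, Pnpla2 at 11.82, Acaca at 11.34, Fasn at 12.88 and Pcx at 11.30.

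M6 replicate 2 stood apart for 12 genes, both brown fat genes among them: Ucp1 at 8.94, Cidea at 6.87, Plin1 at 9.84, Slc2a4 at 8.54, Pparg at 8.93, Thrsp at 9.96, Acvr1c at 6.13, Agpat2 at 11.53, Gpd1 at 11.24, Pck1 at 8.08, Lipe at 10.19 and Acly at 10.99.

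MVT-1 replicate 2 and R3T replicate 2 stood apart for 8 genes each. In MVT-1 these were Retn at 10.66, Plin1 at 9.22, Aqp7 at 8.07, Pparg at 9.24, Gpd1 at 9.81, Pck1 at 8.53, Pnpla2 at 10.68 and Fasn at 11.40. In R3T they were Mlxipl at 8.38, Thrsp at 8.98, Acvr1c at 7.51, Dgat1 at 9.69, Pnpla2 at 11.12, Fasn at 12.28, Scd1 at 13.25 and Pcx at 10.13.

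The remaining 6 flags were scattered. Slc2a4 at 7.13 and Acly at 10.57 stood apart in TS/A-E1 replicate 2, Plin2 at 12.24 in D2A1 replicate 1, Acvr1c at 5.81 in D2A1 replicate 2 and Acly at 10.52 in EMT-6 replicate 3. Ucp1 was low at 5.47 in EMT-6 replicate 1, in a model whose values spanned 0.07 log2 units.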

How the results depend on the processing

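The count of genes that differed between models, 2 of 32, was 10 without the 3 tumors closest to another model, a setting added after the data were seen, and 1 to 8 when each tumor was left out in turn. It stayed at 2 under the other normalizations, filters and priors and the one-way test of the methods. The count that rose with Adipoq lay between 27 of 28 (without dim genes) and 30, and the count that differed at equal Adipoq between 20 (without 6DT1) and 27 (Adipoq on the linear scale). The slope of Plin2 turned to -0.0059 without the 6DT1 model. No gene passed between the strains under any alternative, although over all genes 38 passed on model means, against 489 with all tumors and the model as a random block and 446 with the replicate block added. With B cell and milk protein genes as covariates, 1508 genes rose and 1510 fell with Adipoq. The replicate block left 2, 30 and 24 of the 3 counts as they were. Over all genes, same-numbered tumors of different models did not deviate together in the median (r = 0.033 over 264 pairs, 0.003 over 792 pairs of other numbers). A median over all genes cannot decide whether the number matters for single genes. Adipoq was highest in replicate 2 in 4T1, D2A1, M6, MVT-1, Met-1, R3T and TS/A-E1, and in replicate 1 or 3 in the other models. Cfd as the measure of fat was not run, since it is not analysed here. Dim genes are limited by their signal over background.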
